A study of Mus musculus with 4 samples.

Results

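Collagen hydroxylation and crosslinking was followed through 10 genes chosen by name: the prolyl 4-hydroxylase genes P4ha1, P4ha2 and P4hb, the lysyl hydroxylase genes Plod1, Plod2 and Plod3, the lysyl oxidase genes Lox, Loxl1 and Loxl2, and Serpinh1, which encodes the collagen chaperone HSP47. Their members in the data were the 51 ATAC-seq peaks, of 128055 in all, that overlapped a span from 5 kb before each gene to 5 kb past its end (GENCODE M21 gene models, genome build mm10). ATAC-seq marks open chromatin by inserting sequencing adapters with the Tn5 transposase. The 4 libraries came from mesenchymal stem cells (MSCs) of mice aged 3 to 5 months, 2 from cells in hypoxia (2% O2) and 2 from cells in normoxia (21% O2). According to the study's methods, the mice were C57BL6/N, all cells were first expanded in hypoxia, and sorted Sca-1-positive, CD140a-positive cells without blood cell markers were then divided between the oxygen levels. A normoxia library therefore describes cells moved out of hypoxia, and each group held only 2 independent experiments.

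Procollagen chains are modified in the endoplasmic reticulum before they fold into a triple helix. Prolyl 4-hydroxylase, a complex of alpha subunits (P4ha1, P4ha2) with the beta subunit protein disulfide isomerase (P4hb), makes the hydroxyprolines that hold the helix stable, the lysyl hydroxylases (Plod genes) make the hydroxylysines used for glycosylation and for crosslinks, and HSP47 binds the folded helix. Outside the cell, lysyl oxidases (Lox, Loxl1, Loxl2) oxidize lysines so that fibrils crosslink, and all of these hydroxylases and oxidases use molecular oxygen. Hypoxia-inducible factor (HIF), a transcription factor that is degraded when oxygen is plentiful, is known to induce P4ha1, P4ha2, Plod2, Lox and Loxl2, which formed the HIF-induced class here. P4hb, Plod1, Plod3, Loxl1 and Serpinh1 formed the constitutive class. Plod1 has also been counted among the HIF targets, and the class comparison was repeated with it moved.

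The sequence just before a start site is where a HIF core motif would be looked for, and 250 bases before the RefSeq gene start (build GRCm38.p6) were searched on both strands for ACGTG and GCGTG. Matches were allowed to overlap, as both strands of CACGTG would. RefSeq promoter sequences were matched for 6 of the 10 genes, P4ha1, P4ha2, P4hb, Plod1, Plod3 and Serpinh1. The windows of the inducible P4ha1 and P4ha2 and of the constitutive P4hb and Serpinh1 are shown so that the classes can be read side by side, with the matches, of either strand, in capitals. None of these windows overlapped an exon, and each lay inside a peak at the gene's own start site.
P4ha1, chr10:59323046-59323295, plus strand: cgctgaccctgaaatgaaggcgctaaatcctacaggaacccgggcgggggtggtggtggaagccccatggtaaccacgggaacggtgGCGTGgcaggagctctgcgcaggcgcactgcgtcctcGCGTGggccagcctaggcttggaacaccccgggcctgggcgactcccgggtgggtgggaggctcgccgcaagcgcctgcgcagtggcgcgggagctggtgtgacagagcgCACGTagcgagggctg
P4ha2, chr11:54100674-54100923, plus strand: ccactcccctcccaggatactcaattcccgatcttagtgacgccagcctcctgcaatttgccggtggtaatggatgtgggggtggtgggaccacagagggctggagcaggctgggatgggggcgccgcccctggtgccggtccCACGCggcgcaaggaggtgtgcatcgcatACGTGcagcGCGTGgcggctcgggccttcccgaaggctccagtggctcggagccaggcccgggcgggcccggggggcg
P4hb, chr11:120573254-120573503, minus strand: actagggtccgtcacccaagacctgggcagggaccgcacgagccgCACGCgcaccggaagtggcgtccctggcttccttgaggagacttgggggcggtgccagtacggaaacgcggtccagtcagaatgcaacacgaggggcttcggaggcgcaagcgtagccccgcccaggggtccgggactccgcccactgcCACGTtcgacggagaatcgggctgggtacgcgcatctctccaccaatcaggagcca
Serpinh1, chr7:99353240-99353489, minus strand: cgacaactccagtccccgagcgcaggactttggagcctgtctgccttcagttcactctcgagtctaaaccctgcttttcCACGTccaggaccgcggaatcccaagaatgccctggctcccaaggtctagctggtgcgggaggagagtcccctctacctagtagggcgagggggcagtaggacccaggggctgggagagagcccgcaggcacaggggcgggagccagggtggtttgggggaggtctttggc

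P4ha1 and P4ha2 each held 3 matches, P4hb held 2 and Serpinh1 held 1. In P4ha1 the matches began 163, 126 and 16 bases before the gene start, and in P4ha2 107, 78 and 69 bases before it. P4hb had its matches 205 and 56 bases before the start and Serpinh1 at 171. Plod1 held 1 match, 20 bases before its start, and Plod3 held 4. Matches were therefore found in both classes, and of the windows searched that of the constitutive Plod3 had the most. The Plod3 window, unlike those shown, overlapped an exon. Plod2, Lox and Loxl2 of the HIF-induced class were not searched, while of the constitutive class only Loxl1 was missing. The classes can therefore not be ranked by their matches. Of 32851 RefSeq promoters, 38.6% held at least 1 match in a window of the same length and 6.58% held 3 or more. The windows were rich in G and C, from 55.6% in Plod3 to 70.0% in P4ha2. A match is only a run of letters, and binding was not measured.

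The deposited value of a peak was its reads per 10000000 reads of the library, not divided by peak width, and recovered library totals ran from 26680936 to 29965523 reads. Nuclear peaks held 51.2% ± 2.82 (SD, n = 2) of the reads in hypoxia and 33.1% ± 2.95 in normoxia, so values were scaled by RLE (relative log expression) size factors, after which the median log2 fold change of all peaks was -0.00394, against -0.44 in the values as deposited. All fold changes are normoxia minus hypoxia on log2(scaled signal + 1). They come from limma with Benjamini-Hochberg adjustment over all peaks or all genes, and a call is an FDR under 0.01. The libraries carried the start sites of mesenchymal genes, with peaks at 9 of 9 markers and a summed scaled signal of 1927 and 1947 in hypoxia against 1527 and 1495 in normoxia. Blood markers had start-site peaks at 4 of 8 genes, with none at Ptprc, Cd79a, Cd3e and Itgam and a sum of 164 to 187 over the libraries. Endothelial markers had them at 4 of 5, with none at Cdh5 and a sum of 116 to 137. The part of these shifts in the results was not tested, and in bulk libraries fewer cells with an open site and a weaker signal per cell cannot be told apart.

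Under RLE scaling, fold changes at the collagen enzymes were mostly negative at start sites and of mixed sign elsewhere, and few single peaks passed the test. Of the 51 peaks, 4 were called lower in normoxia (7.84%) and 0 higher, where 4.57% of all peaks were called lower and 1.77% higher. The 4 include a narrow stretch at Plod1 that the peak caller gave to hypoxia only, a choice that favours a lower value. At an unadjusted p under 0.05 there were 17 lower and 7 higher (33.3% and 13.7%), against 16.8% and 12.5% of all peaks. edgeR's quasi-likelihood test on the recovered reads with RLE factors gave 4 lower and 0 higher (5.7% and 2.54% of all peaks). DESeq2 gave 3 lower and 0 higher, counts without a share of all peaks to set beside them. The split depended on the scaling. The values as deposited gave 23 lower and 0 higher (24.0% and 0.391% of all peaks), and cyclic loess, which removes a trend with signal strength, gave 0 lower and 4 higher (1.31% and 1.42% of all peaks). Without either one of the hypoxia libraries the peak calls were lost, among the 51 peaks as among all 128055. Without normoxia replicate 2 more peaks were called lower, again in both sets.

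Of the 12 peaks at the enzymes' own start sites (within 1 kb of an annotated transcript start), 2 were called lower and 0 higher, against 16.7% and 0.442% of all 17661 start-site peaks. The 2 include the Plod1 stretch that the peak caller gave to hypoxia only. The 39 peaks elsewhere held 2 lower and 0 higher calls (5.13% and 0%), against 2.64% and 1.98% of all peaks away from start sites. The normoxia libraries both lay below the hypoxia pair at 26 of the 51 peaks (29.6% of all peaks) and above them at 12 (27.4% of all peaks). At own start sites they lay below at 10 of 12 peaks and above at 0, where the shares among all start-site peaks were 60.3% and 10.3%. The median log2 fold change was -0.34 at the 12 own start-site peaks and -0.11 at the 39 others, against -0.27 at all start-site peaks and 0.05 at all other peaks. The plot of signal at start sites shows the strongest such peak of each gene.

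**Figure D1:**
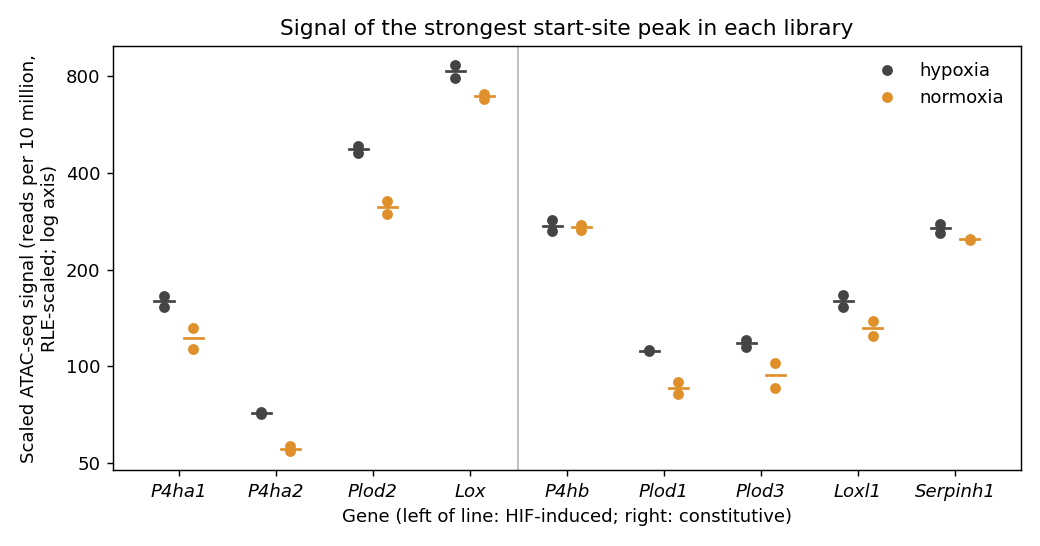
Scaled signal (reads per 10000000 after RLE scaling, log axis) of the strongest start-site peak of the 9 enzymes that have one, with a point per library and a short line at each group mean. Normoxia points lie below hypoxia points in 8 of the 9 genes and overlap them in P4hb, a direction that turns under cyclic loess in Lox, P4hb, Loxl1 and Serpinh1.

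Among the prolyl 4-hydroxylase genes, no peak was called. The P4ha1 start-site peak (chromosome 10, 59321201 to 59324900) had a scaled signal of 165 and 153 in hypoxia against 113 and 132 in normoxia. The groups did not overlap, and the log2 fold change was -0.38 (SE 0.12, limma FDR 0.0298), which did not pass the threshold. Without normoxia replicate 2 it was -0.48 with an FDR of 0.00204, and without normoxia replicate 1 it was -0.26 with an FDR of 0.148. Without hypoxia replicate 1 or 2 the FDR was 0.314 and 0.22, in a range of 5.65e-05 to 0.785 over the alternatives. The other 5 peaks of P4ha1 had positive log2 fold changes under this scaling, from 0.16 to 0.95, and the strongest of them, past the gene end, was at -0.12 in the values as deposited. The largest of these lay in an intron (59357401 to 59358200) and had 4.96 and 3.85 in hypoxia and 8.74 and 10.1 in normoxia (log2 fold change 0.95, SE 0.33, limma FDR 0.0489). Summed over its 6 peaks, P4ha1 had 258 and 245 in hypoxia and 237 and 252 in normoxia, so the groups overlapped (log2 fold change -0.04, SE 0.10, FDR 0.76).

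P4ha2, the second alpha subunit gene, also had negative values at its strongest peaks and positive values at weaker ones. All peaks showed a similar split by signal strength, given below, so it is not read as a trait of these genes. Its stronger start-site peak (chromosome 11, 54100001 to 54102700) had 71.0 and 72.1 in hypoxia against 56.6 and 54.6 in normoxia, with a log2 fold change of -0.36 (SE 0.14; FDR 0.0882 by limma). A weaker start-site peak (54105001 to 54109900) overlapped between the groups, at 40.6 and 33.3 against 39.6 and 35.6. The most accessible site of the gene was intronic (54111801 to 54114100), with 87.7 and 86.4 in hypoxia and 69.9 and 65.9 in normoxia (log2 fold change -0.35, SE 0.14, FDR 0.0734). The 3 intron peaks beyond it had positive values, 0.52, 0.28 and 0.75. The last of them (54126701 to 54127700) had 12.1 and 10.2 in hypoxia and 15.6 and 23.96 in normoxia (limma FDR 0.0419). It rested on normoxia replicate 2, without which it was 0.47 (FDR 0.382). The sum over the 6 peaks of P4ha2 was 247 and 239 in hypoxia against 228 and 229.8 in normoxia (log2 fold change -0.09, SE 0.10, FDR 0.502).

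P4hb encodes the shared beta subunit, which is also a disulfide isomerase in its own right. Its start-site peak (chromosome 11, 120571601 to 120582600) also covers the start of the neighbouring gene Arhgdia, so the signal belongs to both. It had 284 and 263 in hypoxia against 265 and 276 in normoxia, the groups overlapped, and the log2 fold change was -0.02 (SE 0.10, limma FDR 0.931). Under cyclic loess this peak was called higher, at 0.40 with an FDR of 0.00259, in a range of 0.00259 to 0.976 over the alternatives. A peak 5 kb or less past the gene end had 57.3 and 59.98 in hypoxia and 63.9 and 63.6 in normoxia (log2 fold change 0.12, SE 0.15, FDR 0.63).

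Among the lysyl hydroxylase genes, the start-site peak of Plod2 was called lower in normoxia, and Plod3 had no called peak. A narrow start-site stretch of Plod1 was also called lower, but the peak caller had given it to hypoxia only. Plod2, which hydroxylates the telopeptide lysines that give stable crosslinks, held 14 of the 51 peaks. Its start-site peak (chromosome 9, 92537301 to 92549200) had 460 and 485 in hypoxia against 298 and 326 in normoxia, with both normoxia libraries well below. It fell by 0.60 on the log2 scale (SE 0.09, limma FDR 6.75e-05), the largest fall under RLE scaling among the strongest start-site peaks of the 9 genes. Without hypoxia replicate 1 the value was -0.65 (FDR 0.175) and without hypoxia replicate 2 it was -0.57 (FDR 0.168). Under cyclic loess it was -0.13 (FDR 0.321), in a range of 8.34e-12 to 0.321 over the alternatives.

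Within the Plod2 gene body the peaks did not move together. The wide intron peak at 92554301 to 92565300 had 167 and 197 in hypoxia and 152 and 186 in normoxia, which overlapped. The peak past the gene end (92609901 to 92615100) had 206 and 239 in hypoxia and 167 and 177 in normoxia (log2 fold change -0.37, SE 0.11, FDR 0.0229). An exon-containing peak between them (92583301 to 92586100) went the other way, with 50.5 and 46.8 in hypoxia and 67.2 and 71.9 in normoxia (log2 fold change 0.51, SE 0.15, limma FDR 0.0193). The 8 remaining peaks found in both groups had values from -0.31 to 0.30, and none was called. Under cyclic loess the 92583301 peak was called higher at 0.66 (FDR 0.00352), and its FDR ranged from 0.00321 to 0.903. This peak and the intron peaks of P4ha1 and P4ha2 with an FDR under 0.05 were singled out after their values were seen, and at that level 9 of the 51 peaks were lower and 3 higher (9.68% and 5.38% of all peaks). The plot of fold change by position shows the layout gene by gene.

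**Figure D2:**
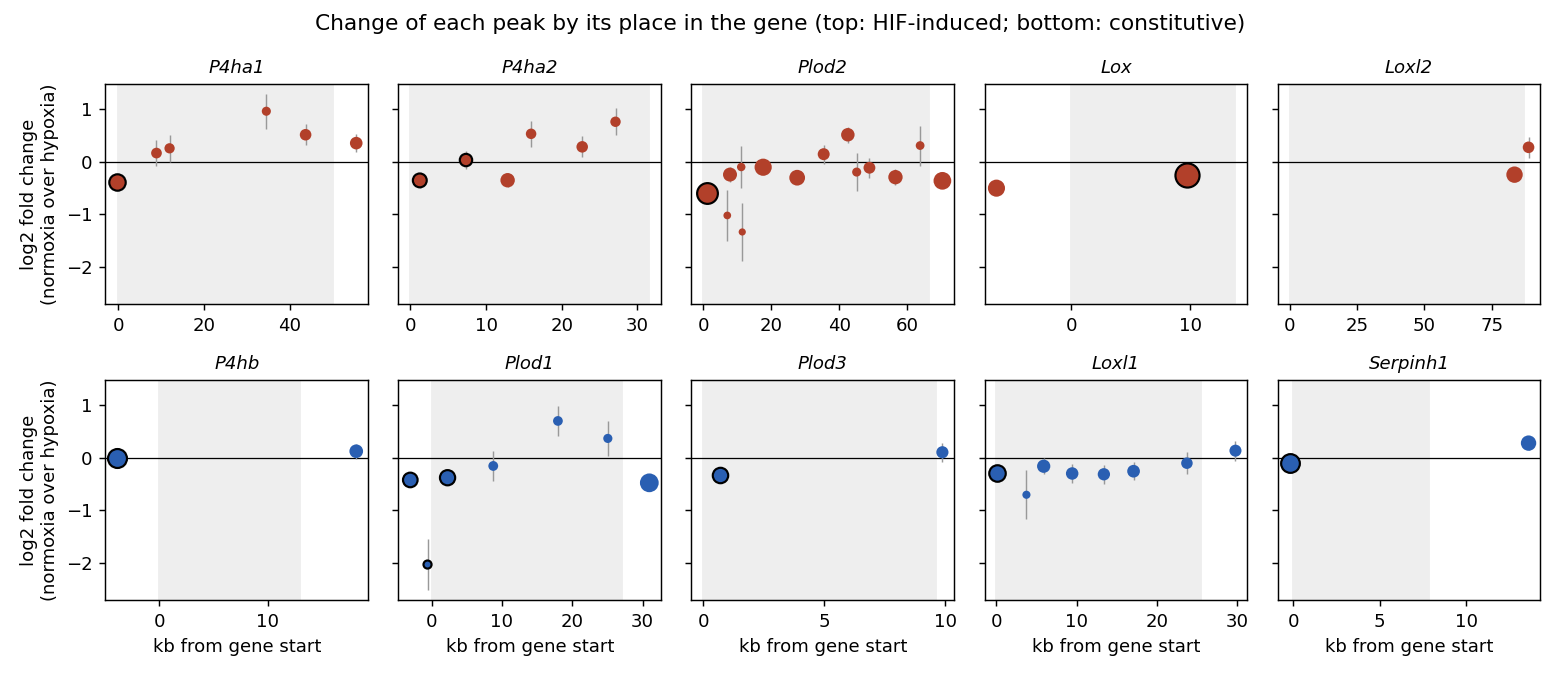
Log2 fold change of each peak (normoxia minus hypoxia, bars are SE) against its distance in kb from the gene start for the 10 enzymes, with the gene body shaded, larger points for stronger signal and a black outline for peaks at the gene's own start site. In P4ha1 the outlined point lies at -0.38 and the other 5 points above 0, and in Plod2 the outlined point is at -0.60.

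Plod1, a lysyl hydroxylase of helical lysines, had 3 peaks at its own start sites among the 7 in its span. The strongest of the 3 (chromosome 4, 147931801 to 147937200) had 113 and 111 in hypoxia and 82.3 and 89.5 in normoxia (log2 fold change -0.38, SE 0.13, limma FDR 0.0398). A further start-site peak (147937501 to 147942100) also covers the start of 2510039O18Rik, and had 91.1 and 96.02 against 70.8 and 68.1 (log2 fold change -0.42, SE 0.13, FDR 0.0297). The 3 weak peaks inside the gene body had values from -0.16 to 0.69 and no call. Next to the strongest start-site peak lay a narrow stretch (147937201 to 147937500) that the peak caller gave to hypoxia only.

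That narrow Plod1 stretch held 15 reads in each hypoxia library and 0 and 2 in the normoxia libraries. It was called lower (log2 fold change -2.02, SE 0.49, limma FDR 0.00482), a value that depends on the pseudocount. The ratio of normoxia to hypoxia reads per library total was 0.0679, with an exact 95% interval of 0.00786 to 0.267 that covers counting error only. Because the peak caller picked this stretch for hypoxia alone, a lower normoxia value was favoured in advance. Neither the call nor the interval is independent support for a fall. The call was lost without any of hypoxia replicate 1 (FDR 0.201), hypoxia replicate 2 (FDR 0.181) and normoxia replicate 1 (FDR 0.0369), in a range of 0.000145 to 0.201. The remaining called peak of the Plod1 span (147903801 to 147907800) is the start site of the neighbour Mfn2, with 291 and 299 in hypoxia and 189.96 and 235 in normoxia (log2 fold change -0.48, SE 0.11, FDR 0.00281). Without hypoxia replicate 1, hypoxia replicate 2 and normoxia replicate 1 in turn, its FDR was 0.201, 0.217 and 0.0146.

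Plod3, whose product both hydroxylates and glycosylates lysines, had its start-site peak (chromosome 5, 136986401 to 136989000) in common with Znhit1. The peak had 121 and 115 in hypoxia and 103 and 85.7 in normoxia (log2 fold change -0.33, SE 0.13, limma FDR 0.0783). Its only other peak overlapped between the groups, at 37.8 and 29.2 against 35.4 and 35.9.

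Among the lysyl oxidase genes, a peak upstream of Lox was called lower, no peak of Loxl1 was called and Loxl2 had no peak at its start. A single peak of 22600 bases covered all of Lox, the founding lysyl oxidase, and its surroundings (chromosome 18, 52508801 to 52531400). It had 789 and 863 in hypoxia and 679 and 702 in normoxia, without overlap (log2 fold change -0.26, SE 0.08, limma FDR 0.0255). The call turned with the scaling, since under cyclic loess the Lox peak was called higher (0.31, FDR 0.00258), while without normoxia replicate 1 or 2 it was called lower (-0.23 and -0.28, FDR 0.00714 and 0.000328), in a range of 0.000101 to 0.838.

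A separate peak upstream of Lox (chromosome 18, 52534601 to 52537700) had 188 and 206 in hypoxia and 131 and 147 in normoxia. It was called lower at -0.50 (SE 0.11, limma FDR 0.00305). Without hypoxia replicate 1 it was -0.58 (FDR 0.177), without hypoxia replicate 2 -0.45 (FDR 0.204) and under cyclic loess -0.16 (FDR 0.346), in a range of 5.24e-06 to 0.35.

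Loxl1, a lysyl oxidase-like enzyme known for elastic fibres, had 8 peaks. Its start-site peak (chromosome 9, 58309701 to 58316500) had 167 and 153 in hypoxia against 138 and 124 in normoxia, which gave -0.28 on the log2 scale (SE 0.12, limma FDR 0.098). The 5 intron peaks of Loxl1 had values from -0.70 to -0.16, its exon peak was at -0.11 and the peak past the gene end at 0.13. Loxl2, which is linked to basement membrane collagen, had no listed peak between position 69242000 and 69690501 of chromosome 14, a stretch of 448.5 kb that holds its start at 69609068. Its peaks were an exon peak near the end of the gene (69690501 to 69694500), with 156 and 150.5 in hypoxia and 132 and 125 in normoxia (log2 fold change -0.25, SE 0.12, FDR 0.148), and a weak peak past the end that overlaps R3hcc1 (log2 fold change 0.27, SE 0.20, FDR 0.391).

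Serpinh1 had 2 peaks. The start-site peak (chromosome 7, 99348801 to 99358100) had 278 and 259 in hypoxia against 249 and 247 in normoxia, which gave -0.11 on the log2 scale (SE 0.10, limma FDR 0.492). The peak past its end overlaps Map6 and had 108 and 88.04 in hypoxia and 115 and 121 in normoxia (log2 fold change 0.27, SE 0.13, FDR 0.154). Under cyclic loess it was called higher at 0.54 (FDR 0.00395), in a range of 0.00395 to 0.704.

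Per kb of peak, the mean scaled start-site signal was highest at Plod3 (40.8) and P4ha1 (38.1), followed by Lox (33.6), Plod2 (33.0), Serpinh1 (27.8), P4hb (24.7), P4ha2 (23.5), Loxl1 (21.4) and Plod1 (18.3). Neighbours in this order overlapped over the 4 libraries, as Lox (30.04 to 38.2) and Plod2 (25.01 to 40.8) did, except Serpinh1 (26.6 to 29.9) and P4hb (23.9 to 25.9). The order differed between the groups: the mean of Plod2 lay above that of Lox in hypoxia (39.7 and 36.6) and below those of Lox and Serpinh1 in normoxia (26.2, 30.5 and 26.7). P4ha2 lay above P4hb in hypoxia (26.5 and 24.9) and below it in normoxia (20.6 and 24.6).

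Summed over all peaks of a span, 3 of the 10 enzymes were called lower in normoxia and 0 higher, against 25.6% and 2.5% of 17651 protein-coding genes. At an FDR under 0.05 there were 4 lower and 0 higher (35.5% and 4.69% of all genes), and at an unadjusted p under 0.05 there were 5 lower and 0 higher (41.5% and 6.84% of all genes). edgeR on the recovered reads with RLE factors called 3 lower and 0 higher (25.4% and 2.5% of all genes). The normoxia libraries both lay below the hypoxia pair in 7 of the 10 sums and above it in 0, against 57.0% and 14.3% of all genes. Plod2 had 1228 and 1354 in hypoxia and 996 and 1069 in normoxia, and fell by 0.32 on the log2 scale (SE 0.07, limma FDR 2.63e-05). Lox had 978 and 1069 in hypoxia and 809 and 849 in normoxia, and fell by 0.30 (SE 0.07, FDR 0.000216). Plod1 had 523 and 536 in hypoxia and 375 and 423 in normoxia, and fell by 0.41 (SE 0.09, FDR 2.49e-05). The Plod1 sum includes the Mfn2 start site. Without flanks, which drops that peak and also the 147937201 and 147937501 start-site peaks, it was -0.23 with an FDR of 0.107.

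The other 7 sums were not called. Loxl1 was at -0.23 (FDR 0.035), Plod3 at -0.22 (FDR 0.0972) and Loxl2 at -0.17 (FDR 0.213), near the median of -0.17 over all genes. P4hb (0.01) and Serpinh1 (0.00) lay closest to no difference, with SE of 0.09 each. Without hypoxia replicate 2, the log2 fold changes were -0.26 for Plod2, -0.24 for Lox and -0.40 for Plod1. The calls among the 10 sums were then lost, and fewer of all genes were called lower too. As deposited all 10 were called lower (77.0% of all genes, and 0.204% higher), and under cyclic loess 0 were called in either direction (7.16% of all genes lower and 7.27% higher), with P4ha1, P4ha2, Loxl2 and Loxl1 turning positive. Cyclic loess was run on the sums apart from the peaks, so a sum and its peaks are not on the same scale there. The Lox sum was at -0.10 under it, while the Lox start-site peak was at 0.31.

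**Figure D3:**
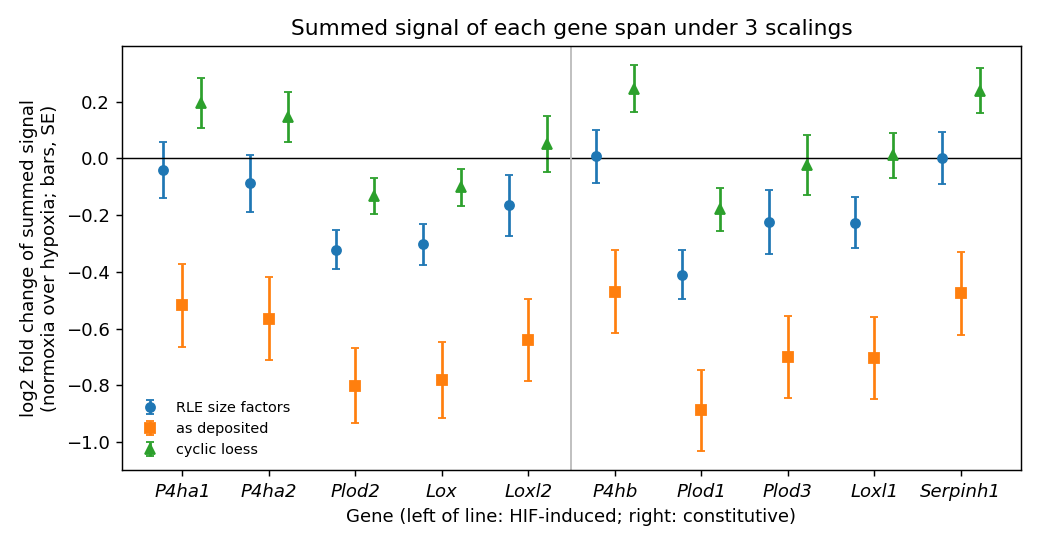
Log2 fold change (normoxia minus hypoxia, bars are SE) of the signal summed over each enzyme's span under 3 scalings, RLE, as deposited and cyclic loess. As deposited all 10 enzymes lie below 0, while under RLE the values run from -0.41 in Plod1 to 0.01 in P4hb, and under cyclic loess P4ha1, P4ha2, Loxl2 and Loxl1 turn positive.

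The HIF-induced and constitutive classes differed little in their fold changes. The median log2 fold change was -0.11 over the 30 peaks of the HIF-induced genes and -0.16 over the 21 peaks of the constitutive genes. With each peak set against its own mean over the libraries, the HIF-induced minus constitutive difference of medians was -0.06 and 0.05 in hypoxia, against -0.05 and 0.02 in normoxia, so the groups overlapped. The spread of that contrast between libraries (SD 0.064, pooled within groups, n = 2 each) was larger than the 0.05 between the classes' median fold changes. Each class held 2 peaks called lower, 6.67% of the HIF-induced and 9.52% of the constitutive peaks, against 4.57% of all peaks. Both held 0 called higher, against 1.77% of all peaks. In the constitutive class these calls were the Mfn2 start site and the narrow Plod1 stretch, which the peak caller gave to hypoxia only. In the HIF-induced class they were the Plod2 start-site peak and the peak upstream of Lox. With Plod1 moved to the HIF-induced genes the difference was -0.02. Restricted to start-site peaks it was -0.03, and over gene sums it was 0.06, so its sign depended on which peaks and genes were counted. The median log2 signal level of the HIF-induced peaks, not divided by width, lay below that of the constitutive peaks by 0.33 and 0.61 in hypoxia and by 0.05 and 0.14 in normoxia, and here the groups did not overlap. That gap is between median levels of different peaks. The same peaks, each set against its own mean, gave the overlapping values above, so the gap is not read as a shift between the classes.

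At the strongest start-site peak of each gene, the 4 HIF-induced genes that have one had a median log2 fold change of -0.37 and the 5 constitutive genes -0.28, under RLE scaling. Under cyclic loess these were -0.10 and 0.03. Within a library, the median log2 signal, not divided by peak width, of the HIF-induced genes exceeded that of the constitutive genes by 0.72 and 0.83 in hypoxia and by 0.40 and 0.73 in normoxia. The normoxia values reached 0.73, above the lower hypoxia value, so the groups overlapped at these peaks, unlike the gap over all peaks. Values also spread within each class, from -0.60 in Plod2 to -0.26 in Lox among the inducible genes and from -0.38 in Plod1 to -0.02 in P4hb among the constitutive ones.

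Fold changes in these libraries varied with signal strength, taken as the mean deposited value, over all peaks. The median log2 fold change was -0.56 in the weakest 5% of peaks and 0.25 at mean values of 7.23 to 8.25. It was 0.03 at values of 23.3 to 28.3 and -0.20 at values of 59.5 to 82.6. In the strongest 5% of peaks the median log2 fold change was -0.37, with quartiles of -0.50 and -0.23, and 11 of the 51 enzyme peaks were in that group. The Plod2 start-site peak (-0.60) and the Lox upstream peak (-0.50) were at or below the lower quartile. The start-site peaks of P4hb (-0.02) and Serpinh1 (-0.11) and the wide Plod2 intron peak (-0.11) lay above the upper quartile. Over all strengths, 26 enzyme peaks were below and 25 above the median of the peaks of like strength.

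**Figure D4:**
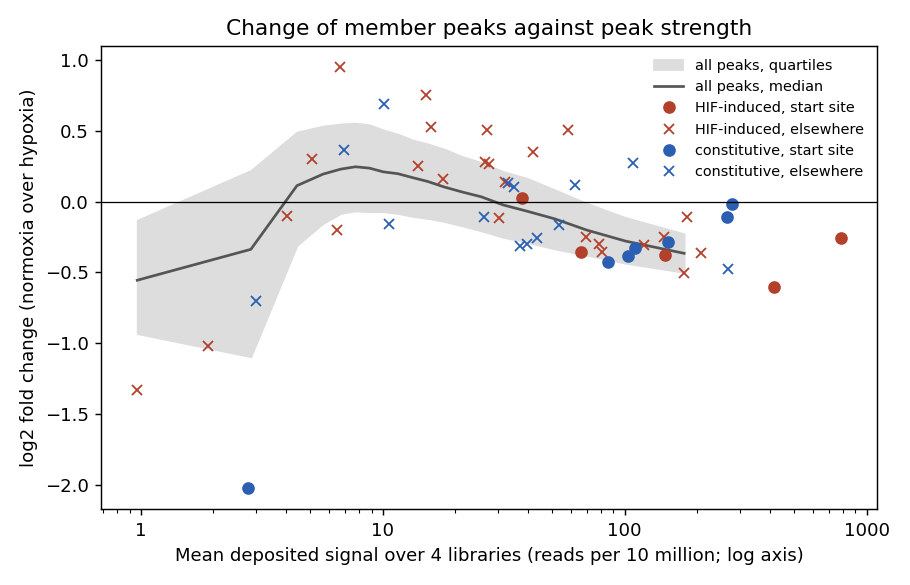
Log2 fold change (normoxia minus hypoxia) of the 51 enzyme peaks against the mean deposited signal over the 4 libraries (log axis), with the median and quartiles of all peaks in bins of 5%. The enzyme points spread on both sides of the line, 26 below and 25 above, with the Plod2 start site at -0.60, below the lower quartile of -0.50 in the strongest bin, whose band is drawn at its median signal.

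The share of a gene's span signal that falls at its own start site does not change with a library's size factor. It was not adjusted for the trend of fold change with signal strength. It was fitted over 12929 genes, as a measure chosen after the data were seen, and 0 genes were called in either direction (0.0%). At an unadjusted limma p under 0.05, 3 of 9 enzymes and 4038 of the 12929 genes had a lower share in normoxia. A higher share was found in 0 of 9 enzymes, a count without one over all genes to set beside it. Neither count is read as a trait of the enzymes. P4ha1 went from 64.03% and 62.3% in hypoxia to 47.7% and 52.2% in normoxia (limma FDR 0.0381). Plod2 went from 37.5% and 35.8% to 29.9% and 30.5% (FDR 0.0713), and Serpinh1 from 71.9% and 74.7% to 68.3% and 67.1% (FDR 0.14). Lox had a higher share in normoxia, 83.9% and 82.7% against 80.7% in both hypoxia libraries (FDR 0.36). The median change over all genes was a drop of 2.76 percentage points with quartiles of -6.15 and -0.011, and P4ha1 at -13.2 and Plod2 at -6.45 lay beyond the lower quartile.

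The peak caller gave 4 of the 51 peaks to hypoxia only, which was 7.84% against 6.84% of all peaks. Of these, 2 belonged to Plod2 and 1 each to Plod1 and Loxl1. All 4 were narrow stretches that touched a wider peak found in both groups, and held at most 15 reads in a library. None was a separate open site of a hypoxia library.

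The other genes of collagen maturation were taken from a list of 18, which cover prolyl 3-hydroxylation, folding, glycosylation, propeptide removal, crosslinking and export. Their summed signal was called lower in normoxia for 7 of 18 genes and higher for 0, against 25.6% and 2.5% of all genes (11 lower and 0 higher at an unadjusted p under 0.05, against 41.5% and 6.84%). The 7 were Crtap, P3h4 and Fkbp10 of the hydroxylation and folding complexes, Colgalt1, which puts galactose on hydroxylysine, the lysyl oxidase-like gene Loxl4, and the procollagen processing genes Pcolce and Adamts2. Adamts2, the N-propeptidase gene, fell from 1358 and 1299 to 998 and 1020 (log2 fold change -0.40, SE 0.07, limma FDR 1.75e-07). Crtap, a partner of prolyl 3-hydroxylase, had 188 and 184 in hypoxia and 123 and 142 in normoxia (log2 fold change -0.49, SE 0.11, FDR 8.03e-05).

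Loxl4 had 167 and 146 in hypoxia and 104 and 122 in normoxia (log2 fold change -0.47, SE 0.11, limma FDR 0.000329). P3h4 and Fkbp10 share a start-site peak, which was called lower (-0.41, SE 0.10, FDR 0.00644), so they do not count as separate results. Among the 19 start-site peaks of the list, those of Crtap and Loxl4 were also called. That made 3 lower and 0 higher (15.8% and 0%), against 16.7% and 0.442% of all start-site peaks. P4ha3, the remaining alpha subunit gene, had 347 and 351 in hypoxia and 362 and 311 in normoxia (log2 fold change -0.06, SE 0.09, FDR 0.651). Under cyclic loess 1 sum of the list was called lower, Adamts2, and 2 higher, P3h2 and Adamts14, while as deposited all 18 were lower. With either hypoxia library left out, fewer of the 18 sums were called lower, and so were fewer of all genes. Of the list's 129 peaks, 11 were called lower and 1 higher (8.53% and 0.775%), against 4.57% and 1.77% of all peaks. Without either hypoxia library 0 were called lower, as were 0 of all peaks.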

How the data were processed

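ATAC-seq was performed on 4 libraries, 2 at 2% O2 and 2 at 21% O2. According to the study's methods and the submitters' processing notes, reads were aligned to mm10 with Bowtie2 and chromstaR called 1 peak set over both groups. The methods state that duplicates were removed with Picard before peaks were called. The authors call the deposited signal RPKM, but every value was a whole multiple (tolerance 0.001) of 10000000 divided by a library total. Peak width was not divided out. Reads were recovered on that basis. Totals ran from 26680936 to 29965523, with a median of 33 to 48 reads per peak.

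RLE size factors (0.815 to 1.24) were applied. log2(value + 1) was fitted with limma 3.58.1 (trend and robust, R 4.3.3) over 128055 peaks, with none filtered out, or 17651 gene sums, at an FDR under 0.01. edgeR 4.0.16 and DESeq2 1.42.0 on recovered reads, other scalings, pseudocounts (0.1 and 5), a floor of 5 on a peak's mean value, flanks of 0 and 2 kb and left-out libraries were alternatives. On simulated data the peak fit recovered 56% of 2-fold and 97% of 4-fold changes with 11 false calls, and the gene sum fit 97% and 100% with 3. Peaks named were each gene's strongest start-site peak, its strongest peak elsewhere and every called peak. Others were named after their values were seen. The genes, classes and lists were chosen with earlier results of these data known. The main fit did not pair the libraries by replicate number.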

Additional observations from a re-analysis of the deposited data

How the results depend on the processing

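Most values kept their direction and their side of the threshold with other pseudocounts, the filter on low values and the count models, and depended on the scaling and on the hypoxia libraries. The peaks called lower numbered 4 and were 23 as deposited, 2 with equal totals over peaks, 0 with quantile normalization, cyclic loess or plain moderation (eBayes without trend and robust), 1 with no flank and 9 at an FDR under 0.05. Those called higher numbered 0 and were 1 with equal totals, edgeR TMM and the replicate block, 2 with quantile normalization, 4 with cyclic loess and 3 at an FDR under 0.05. Gene sums called lower numbered 3 and were 10 as deposited, 1 with equal totals and 0 with quantile normalization, cyclic loess and plain moderation. Leaving out 1 library could move both counts, as it moved those over all features. The share of all peaks called lower was 4.57%, and it was 24.0% as deposited, 1.31% with cyclic loess and 9.68% at an FDR under 0.05. That of all gene sums was 25.6%, and 77.0%, 7.16% and 35.5% in the same order. Under most other settings the share is not given here, so a count that moves is not read as a trait of the enzymes. For the list of 18 genes, peaks called lower were 39 as deposited, 6 with equal totals, cyclic loess and DESeq2, 3 with quantile normalization, 7 with a pseudocount of 0.1, 0 with plain moderation and 22 at an FDR under 0.05. Its peaks called higher were 0 as deposited, with plain moderation, edgeR on deposited values and DESeq2, 2 with equal totals and quantile normalization, 3 with cyclic loess and 4 at an FDR under 0.05. Its sums called lower were 18 as deposited, 2 with equal totals, 1 with quantile normalization and cyclic loess, 0 with plain moderation and 11 at an FDR under 0.05. Its sums called higher were 1 with quantile normalization and 2 with cyclic loess. The difference of 0.051 between the class medians was 0.116 with cyclic loess, 0.145 with 2 kb flanks, -0.0212 with Plod1 moved and -0.0268 at start-site peaks, and 0.00796 to 0.0996 without 1 library. For the list of 18 genes, leaving out 1 library gave 0 to 16 of its peaks and 1 to 8 of its sums lower, and 0 to 1 peaks higher.

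Values that changed sign were mostly small. With equal totals these were the sums of P4ha1 (0.11) and P4ha2 (0.063) and the P4hb (0.13) and Serpinh1 (0.039) start-site peaks. With quantile normalization they were the sums of P4ha1 (0.19), P4ha2 (0.14), Loxl2 (0.0457) and Loxl1 (0.00915), the strongest other peak of Loxl2 (0.0719) and the start-site peaks of P4hb (0.35), Loxl1 (0.0386) and Serpinh1 (0.27). With cyclic loess they were the same 4 sums (0.193, 0.145, 0.0491 and 0.0102), the strongest other peaks of Plod2 (0.0018) and Loxl2 (0.0652), and the start-site peaks of Lox (0.31), P4hb (0.40), Loxl1 (0.0341) and Serpinh1 (0.30). As deposited they were the sums of P4hb (-0.47) and Serpinh1 (-0.48) and the strongest other peaks of P4ha1 (-0.12), P4hb (-0.35), Plod3 (-0.365) and Serpinh1 (-0.20). With no flank the P4hb (-0.0177) and Serpinh1 (-0.11) sums turned, with 2 kb the P4hb sum (-0.0177), and with edgeR TMM the P4hb start-site peak (0.00671). Leaving out 1 library gave -0.0852 to 0.00866 for the P4ha1 sum, -0.0393 to 0.0391 for the P4hb sum, -0.0808 to 0.0691 for the Serpinh1 sum, -0.0799 to 0.0295 for the P4hb start-site peak and -0.0879 to 0.273 for the strongest other peak of Plod3.

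Deviations of libraries with the same replicate number correlated at 0.011. With 2 libraries a group and counting noise at weak peaks, this cannot show whether libraries of the same number came from the same sorted cells. The replicate block gave 4 peaks lower and 1 higher. The cause of these shifts was not tested. With 2 libraries a group and a median of 118.5 reads per enzyme peak and library, small differences at weak peaks were not detectable. With a library left out, the lone library of its group is assumed to vary like the other group. Plain moderation, and leaving out either hypoxia library, called 0 of all 128055 peaks. A recovered read may stand for a fragment or for a single position, and the sources used here do not say which.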
